A study of Homo sapiens with 15 samples.

Results

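This report describes 10 human genes of eicosanoid synthesis and signalling in A549 cells: PLA2G4A, PTGS1, PTGS2, PTGES, PTGES2, PTGES3, PTGR1, ALOX5, LTA4H and PTGER4. They were taken by name from the 43388 gene symbols counted in each library. The rule uses no measured value, but the list was drawn up with earlier results of these data known. A549 is a human lung adenocarcinoma line with features of alveolar epithelium, used here as wild type with no genetic change. Cells were pretreated for 24 h with all-trans retinoic acid (ATRA, a vitamin A metabolite that activates retinoic acid receptors) at 1e-05 mM, or its ethanol vehicle. They were then kept for 72 h in 95% oxygen (hyperoxia) or 21% oxygen (normoxia). The study's methods describe the oxygen exposure as done with or without ATRA present. RNA-seq libraries numbered 3 with ATRA and 2 with vehicle at each oxygen level. Another 2 libraries at each oxygen level carry labels that name neither ATRA nor vehicle and are called untreated. A further library has labels that conflict and entered no comparison. All groups are the same cell line, so no group shows how other cells of the lung would respond. The labels do not say whether libraries came from separate cultures, so p-values measure only the spread between these libraries.

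Eicosanoids are signalling lipids made from arachidonic acid, which cytosolic phospholipase A2 (PLA2G4A) cuts from membrane phospholipids. The cyclooxygenases PTGS1 and PTGS2 turn it into prostaglandin H2, from which the prostaglandin E synthases PTGES, PTGES2 and PTGES3 make prostaglandin E2, while the lipoxygenase ALOX5 and the hydrolase LTA4H lead to leukotriene B4. PTGR1 reduces and inactivates prostaglandin and leukotriene intermediates, and PTGER4 is a receptor for prostaglandin E2; in the lung these lipids are known for roles in inflammation, airway tone and vessel tone.

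The counts held 2642377 to 5605072 reads on genes per library, at which 3 counts correspond to 0.535 to 1.14 CPM (counts scaled to 1000000 per library), a floor that covers counting error only. Library 1 of untreated hyperoxia stood apart: 12657 genes had a count there against 16465 to 20108 in the 13 others, and on the first principal component it lay at -199 against -9.27 to 35.6. The values of single genes in oxygen comparisons of untreated cells are given with and without it. A fit without it leaves 1 library in that group, as leaving out any library of a pair does, and then takes the spread from the other groups. The labels were checked with genes of known response. The summed level of 5 retinoid response genes was 1248 to 1932 CPM in the ATRA libraries and 365 to 716 CPM in the others. CDKN1A was at 963 to 1140 CPM in hyperoxia and 64.9 to 108 CPM in normoxia, and the proliferation gene MKI67 at 89.1 to 186 CPM and 671 to 1230 CPM. The 6 epithelial markers, all detected in normoxia, summed to 7221 to 8574 CPM untreated, 7669 to 8567 CPM with vehicle and 8621 to 11879 CPM with ATRA in normoxia. In hyperoxia they summed to 3935 to 3940 CPM, 3317 to 3495 CPM and 5516 to 7001 CPM, so the sum moved both with oxygen and with ATRA. The single markers did not all follow it. KRT8, KRT18, EPCAM and CDH1 were lower in hyperoxia at each treatment, and KRT19 overlapped with ATRA. KRT7 was higher in hyperoxia untreated (1845 to 2086 against 1479 to 1733 CPM) and with ATRA (2569 to 2798 against 1725 to 2316 CPM). With vehicle KRT7 was lower (1632 to 1711 against 1763 to 1820 CPM). The 5 leukocyte markers together reached 1.25 to 31.6 CPM, the highest value being ITGAM alone in library 1 of untreated hyperoxia, while CD3E was at 0. The 4 endothelial markers reached 1.87 to 6.26 CPM in normoxia with ATRA, mostly CDH5, and at most 0.96 CPM elsewhere, with VWF at 0. The 5 fibroblast markers were at 1.87 to 12.5 CPM in normoxia, mostly COL1A1, and 0 to 2.36 CPM in hyperoxia, with DCN at 0. The 5 alveolar type II markers were at 50.1 to 91.6 CPM in normoxia and 101 to 154 CPM in hyperoxia, nearly all ABCA3, with SFTPA1 and SFTPA2 at 0. The part of these markers in the results was not tested.

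The sequence just before a RefSeq transcription start is shown for the 4 genes that were called changed in a comparison of ATRA with vehicle, because most results turn on them. Each line gives the 250 bases upstream of the start from RefSeq (GRCh38.p14), read 5′ to 3′ on the strand of the gene. Of the 10 genes, 9 matched a promoter window of this set, and ALOX5 is named only. Capitals mark matches to 8 motifs searched on both strands: the TATA box TATAAA, the retinoid receptor half-site AGGTCA, the kappa B core (GGG, any 5 bases, then CC), the antioxidant response element core TGACNNNGC, the cyclic AMP response half-site TGACG, the CCAAT box CCAAT, the GC box GGGCGG and the EGR1 site GCGTGGGCG.
PTGES (chr9:129753043-129753292, minus strand): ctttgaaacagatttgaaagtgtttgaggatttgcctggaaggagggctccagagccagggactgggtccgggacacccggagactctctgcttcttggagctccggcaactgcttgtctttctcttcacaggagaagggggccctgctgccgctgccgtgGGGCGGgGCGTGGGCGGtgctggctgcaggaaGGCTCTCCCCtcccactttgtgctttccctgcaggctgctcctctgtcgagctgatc
PTGS2 (chr1:186680424-186680673, minus strand): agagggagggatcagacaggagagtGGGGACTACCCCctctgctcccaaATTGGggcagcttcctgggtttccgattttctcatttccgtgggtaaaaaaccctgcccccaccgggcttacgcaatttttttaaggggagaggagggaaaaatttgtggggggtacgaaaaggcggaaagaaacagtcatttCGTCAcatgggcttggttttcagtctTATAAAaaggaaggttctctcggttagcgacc
PTGR1 (chr9:111599432-111599681, minus strand): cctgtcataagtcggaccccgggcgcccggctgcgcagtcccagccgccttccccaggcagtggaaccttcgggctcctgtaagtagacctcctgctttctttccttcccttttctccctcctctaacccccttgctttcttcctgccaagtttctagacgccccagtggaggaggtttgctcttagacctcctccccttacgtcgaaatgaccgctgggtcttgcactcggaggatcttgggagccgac
PLA2G4A (chr1:186828699-186828948, plus strand): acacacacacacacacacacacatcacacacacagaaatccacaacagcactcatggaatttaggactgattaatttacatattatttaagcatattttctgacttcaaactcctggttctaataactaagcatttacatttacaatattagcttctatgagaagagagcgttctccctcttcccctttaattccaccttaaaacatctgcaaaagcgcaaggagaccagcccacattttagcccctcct

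The windows of PTGES and PTGS2 shared no searched motif other than the kappa B core, which 54.4% of the 35116 RefSeq windows hold. The PTGES window held a GC box 89 to 84 bases before the start, a motif present in 42.6% of all windows. An EGR1 site followed at 82 to 74 bases, overlapping another GC box at 78 to 73 bases, and 0.72% of all windows hold the EGR1 letters. The PTGS2 window held a TATA box 32 to 27 bases before the start (10.7% of windows), a cyclic AMP response half-site at 58 to 54 bases (21.2%), an inverted CCAAT at 201 to 197 bases (32% of windows) and overlapping kappa B core matches between 225 and 214 bases. None of the 8 motifs matched in the PTGR1, PLA2G4A or LTA4H windows. The PTGR1 start used lies inside the annotated gene, which ends at 111599647 on the minus strand, so most of that window is within the gene. The LTA4H window (chr12:96035588-96035837) lies wholly inside its gene, which ends at 96043520 on the minus strand. For PTGR1 and LTA4H the absence of a match therefore does not describe the bases before the outer start of the gene. The half-site AGGTCA, found in 12.1% of all windows, and the antioxidant response core, found in 10.9%, matched in none of the 4 windows printed. These are letter matches in short windows and say nothing of the factors or of sites elsewhere.

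In the fit of the 10 vehicle and ATRA libraries, 8 of the 10 genes had enough counts to be tested. PTGS1 and PTGER4 did not. ALOX5 passed the filter only through its counts in hyperoxia with ATRA. It is described by its counts alone, and the counts of genes that follow are of the 7 others. Genes were called changed where p, taken from the quasi-likelihood test of edgeR and adjusted across 14957 genes by the Benjamini-Hochberg method, was under 0.05. Fold changes are on the log2 scale with their standard error (SE). In hyperoxia against normoxia with vehicle, 1 of the 7 rose (PTGR1) and 3 fell (PLA2G4A, PTGES and LTA4H), where 17.5% of all genes tested were called, 8.68% higher and 8.81% lower. With ATRA in both arms, 2 of the 7 rose (PTGR1 and PTGS2) and 4 fell (PLA2G4A, PTGES, PTGES3 and LTA4H), where 22.7% of all genes were called, 11.4% higher and 11.3% lower. With ATRA against vehicle in hyperoxia, PTGES and PLA2G4A rose and PTGR1 fell, 3 of 7 where 2.21% of all genes were called, 1.52% higher and 0.695% lower. In normoxia PTGES rose and PTGR1 and PTGS2 fell, 3 of 7 where 1.25% of all genes were called, 0.816% higher and 0.435% lower. The median log2 fold change of the 7 was -0.28, -0.33, 0.13 and -0.04 in these 4 comparisons, against 0.01, 0.01, 0.00 and 0.00 over all genes tested. These comparisons share libraries: each vehicle group and each ATRA group enters both an oxygen comparison and an ATRA comparison. In total RNA from a whole culture, fewer cells of a kind and less RNA per cell cannot be told apart.

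**Figure D1:**
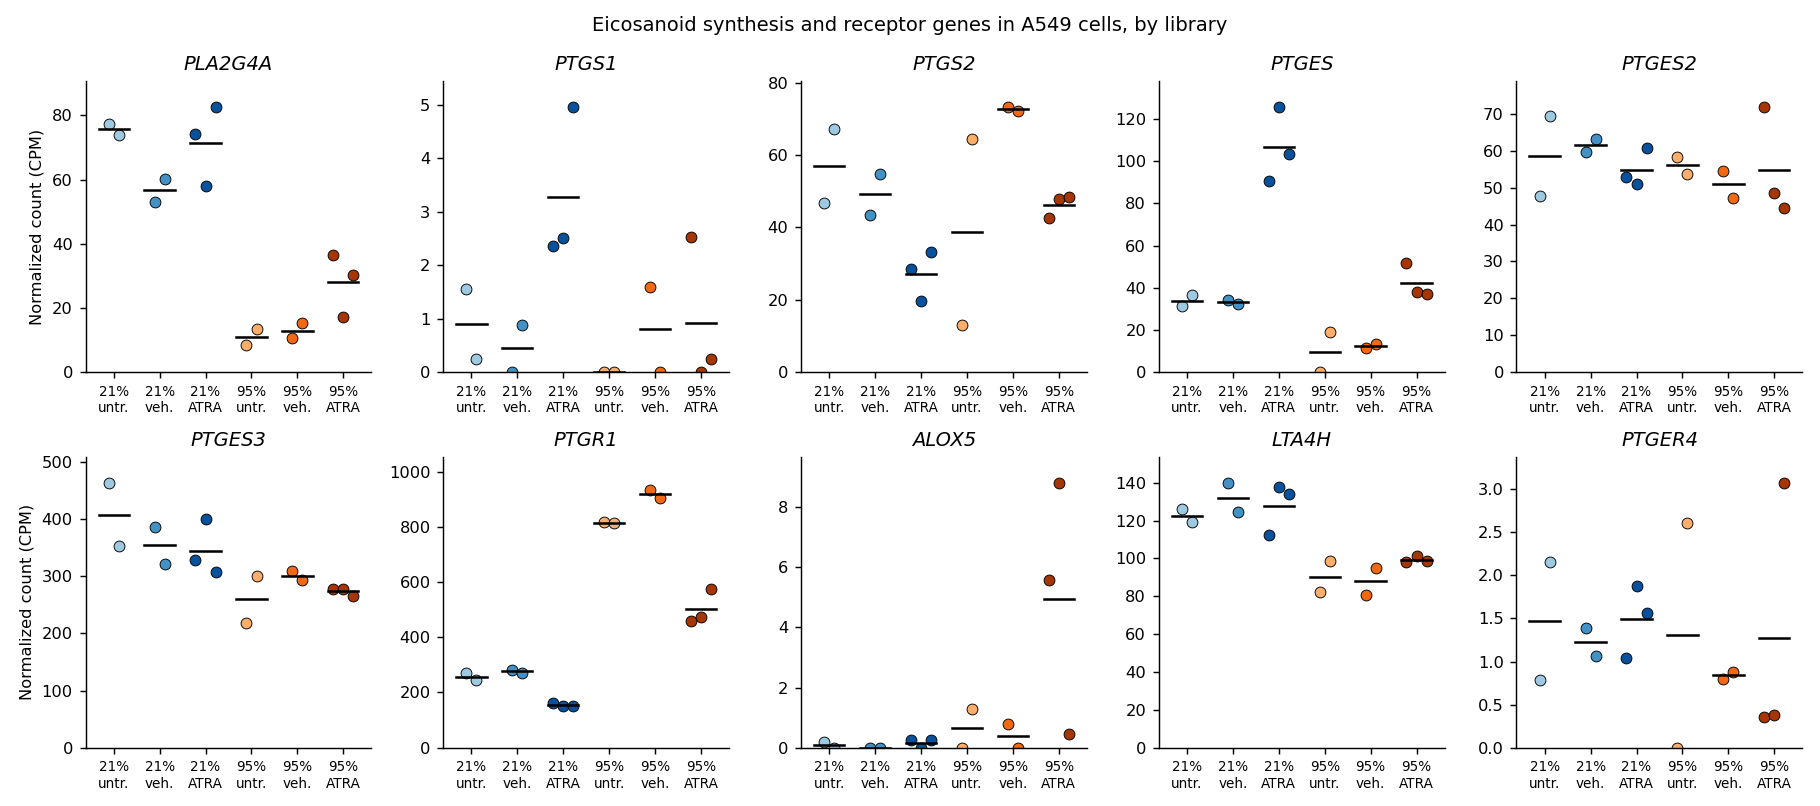
Normalized count (CPM, linear axis from 0) of each of the 10 genes in each of 14 libraries, with a point per library and a line at the group mean; 21% and 95% are the oxygen levels, untr. is untreated and veh. is vehicle. PTGR1 sits at 460 to 932 CPM in all hyperoxia libraries and 150 to 282 CPM in all normoxia libraries, PTGES is highest in the 3 normoxia ATRA libraries at 90.8 to 125 CPM, and PTGS1, ALOX5 and PTGER4 reach at most 8.80 CPM.

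The plot of levels by library shows that PTGES3 and PTGR1 had the highest counts, that PLA2G4A, PTGS2, PTGES, PTGES2 and LTA4H lay between, and that the remaining 3 were near the floor.

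PLA2G4A, the phospholipase that frees arachidonic acid, lies on chromosome 1 of GRCh38 at 186828949 to 186988981, 148525 bases from PTGS2. It was at 53.2 and 60.1 CPM in normoxia with vehicle and at 10.6 and 15.2 CPM in hyperoxia with vehicle. The untreated libraries were at 77.4 and 73.9 CPM in normoxia and 8.39 and 13.4 CPM in hyperoxia. With ATRA it was at 74.1, 58.0 and 82.5 CPM in normoxia and 36.4, 17.2 and 30.2 CPM in hyperoxia. Every hyperoxia library was below every normoxia library, whatever the treatment. Groups that do not overlap are common at these sizes: they were found for 64.5% of all genes tested in the oxygen comparison with vehicle, 52.8% in that of untreated cells and 35.1% in that with ATRA.

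PLA2G4A fell in hyperoxia by a log2 fold change of -2.12 with vehicle (SE 0.29, adjusted p = 1.89e-05 from edgeR), which is 4.34-fold lower. With ATRA the log2 fold change was -1.32 (SE 0.22, adjusted p = 0.000167, edgeR). In untreated cells it was -2.82 (adjusted p = 5.18e-05, edgeR fit of 14 libraries), and -2.50 (adjusted p = 7.09e-05) without library 1 of untreated hyperoxia. Fitted on the 4 untreated libraries alone it was -2.81 (adjusted p = 0.0584). ATRA raised PLA2G4A in hyperoxia by 1.13 against vehicle (SE 0.28, adjusted p = 0.0321, edgeR), and all 3 ATRA libraries were above both vehicle libraries there, as groups of 30.7% of all genes did not overlap. This call was lost, at log2 fold changes of 0.89 to 1.42, when library 1 or 3 with ATRA or either vehicle library of hyperoxia was left out, with adjusted p of 0.128, 0.0619, 0.499 and 0.107. It was also lost in a fit of only the groups compared (1.13, adjusted p = 0.140, edgeR) and in one of all 14 libraries (1.12, adjusted p = 0.151). In normoxia the difference was 0.33 (95% interval -0.17 to 0.84, adjusted p = 0.808, edgeR), and the libraries overlapped. The ATRA effect differed between the oxygen levels by 0.79 (95% interval 0.04 to 1.55), with an unadjusted p of 0.0407 and an adjusted p of 0.668 in the edgeR interaction test.

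The cyclooxygenases differed in level. PTGS2, the inducible enzyme, lies on chromosome 1 at 186671791 to 186680423. It was at 43.4 and 54.8 CPM in normoxia and 73.2 and 72.2 CPM in hyperoxia with vehicle, and at 28.4, 19.7 and 33.3 CPM in normoxia and 42.7, 47.8 and 48.4 CPM in hyperoxia with ATRA. At each treatment the hyperoxia libraries were above the normoxia libraries, and at each oxygen level the ATRA libraries were below the vehicle libraries. The oxygen difference passed the test with ATRA (log2 fold change 0.76, SE 0.19, adjusted p = 0.00639, edgeR) and missed it with vehicle (0.55, SE 0.22, adjusted p = 0.0937). The ATRA difference passed in normoxia (-0.86, SE 0.21, adjusted p = 0.0447, edgeR) and missed in hyperoxia (-0.65, SE 0.20, adjusted p = 0.107). The call in normoxia was lost in a fit of only the groups compared (-0.85, adjusted p = 0.0934) and in one of 13 libraries in 6 groups (-0.86, adjusted p = 0.0516, edgeR). It was also lost when library 1 or 2 with ATRA or either vehicle library was left out, at -0.89, -0.68, -1.01 and -0.67 with adjusted p of 0.126, 0.136, 0.114 and 0.597 (edgeR). The difference with vehicle passed when only the groups compared were fitted (0.54, adjusted p = 0.00644, edgeR). With ATRA as a covariate, the oxygen difference shared by all 10 libraries was 0.67 (adjusted p = 0.00113, edgeR). That value draws on the ATRA libraries too and is not a test of vehicle alone. No difference between these effects was detected: the interaction was 0.21 (95% interval -0.40 to 0.81).

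In untreated cells PTGS2 was at 46.8 and 67.2 CPM in normoxia and at 64.5 CPM in library 2 of hyperoxia. Library 1 of hyperoxia held 65 counts of it, less than any other library relative to its depth, and the groups overlapped. The log2 fold change was -0.59 (adjusted p = 0.415, edgeR). Without library 1 its sign turned, to 0.18 (adjusted p = 0.772), and with library 1 alone it was -2.18, given with no test. Against untreated normoxia, ATRA in normoxia gave -1.06 in the fit of 14 libraries (adjusted p = 0.745) and -1.06 in a fit of 13 that left out library 1 of untreated hyperoxia (adjusted p = 0.00805, edgeR).

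PTGS1, the constitutive cyclooxygenase, on chromosome 9 at 122370533 to 122395703, had 0 to 19 counts per library. Its counts were 9, 8 and 19 in normoxia with ATRA and 0 and 5 in normoxia with vehicle, so these groups did not overlap, as held for 27.6% of all genes. In hyperoxia it had 14, 0 and 1 counts with ATRA, 6 and 0 with vehicle, and 0 in both untreated libraries. Untreated normoxia held 8 and 1 counts. It was too low to be tested among the 10 libraries. In the fit of 14 libraries it passed the filter only through libraries with ATRA. No test of it is given, and it is described by its counts alone.

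The 3 prostaglandin E synthases behaved unequally. PTGES, the inducible membrane-bound synthase, on chromosome 9 at 129738349 to 129753042, was at 34.1 and 32.1 CPM in normoxia and 11.4 and 13.2 CPM in hyperoxia with vehicle. With ATRA it was at 90.8, 125 and 103 CPM in normoxia and 51.7, 37.9 and 37.1 CPM in hyperoxia. The 4 groups did not overlap: normoxia with ATRA was highest and hyperoxia with vehicle lowest, and hyperoxia with ATRA lay just above normoxia with vehicle.

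ATRA raised PTGES by 1.69 in normoxia (SE 0.21, adjusted p = 5.80e-05, edgeR) and by 1.78 in hyperoxia (SE 0.23, adjusted p = 7.52e-05, edgeR), 3.22-fold and 3.43-fold. In hyperoxia it fell, with log2 fold changes of -1.41 with vehicle (SE 0.24, adjusted p = 0.000262, edgeR) and -1.32 with ATRA (SE 0.17, adjusted p = 9.76e-06). The interaction was 0.09 (95% interval -0.53 to 0.70), so a difference in the ATRA effect between oxygen levels within those bounds was not resolved. These 4 calls held in every fit that left out 1 library of the groups compared.

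In untreated cells PTGES was at 31.2 and 36.5 CPM in normoxia. In hyperoxia it had 1 count, or 0.20 CPM, in library 1 and 58 counts, or 18.9 CPM, in library 2. The log2 fold change was -1.97 (adjusted p = 0.0770, edgeR), -0.84 without library 1 (adjusted p = 0.0872) and -7.26 without library 2, a value that rests on the 1 count of library 1 and is given with no test. When that library entered the fit of all 14, the edgeR adjusted p of the 4 PTGES comparisons above became 0.108 to 0.560, and when it was left out again the values were 6.04e-06 to 0.000205. Against untreated normoxia, ATRA raised PTGES by 1.65 in the fit of 13 libraries (adjusted p = 3.01e-05, edgeR). With library 1 of untreated hyperoxia in the fit the value was 1.65 with an adjusted p of 0.588.

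PTGES2, the other membrane-associated synthase, on chromosome 9 at 128120693 to 128128440, was at 44.4 to 71.8 CPM over the 14 libraries. It was called in no comparison, and its log2 fold changes between hyperoxia and normoxia were -0.28 with vehicle (95% interval -0.73 to 0.17) and 0.01 with ATRA (95% interval -0.36 to 0.38). PTGES3, the cytosolic synthase that is also the HSP90 co-chaperone p23, on chromosome 12 at 56663349 to 56688284, was at 307 to 462 CPM in normoxia and 219 to 308 CPM in hyperoxia. Within each treatment its hyperoxia libraries were below its normoxia libraries.

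PTGES3 fell in hyperoxia with ATRA (log2 fold change -0.33, SE 0.12, adjusted p = 0.0416, edgeR) and in untreated cells (-0.65, SE 0.18, adjusted p = 0.0203). With vehicle the difference was -0.23 (SE 0.14, adjusted p = 0.299). The call in untreated cells was lost without library 1 of hyperoxia (-0.44, adjusted p = 0.164) and without library 1 of normoxia (-0.48, adjusted p = 0.203). The call with ATRA was lost in 5 of the 6 fits that left out 1 library, with log2 fold changes of -0.37 to -0.21. It remained only without library 3 of normoxia; without library 2 of normoxia the adjusted p was 0.195, and it was 0.0555, 0.0565 and 0.0938 without hyperoxia libraries 1, 2 and 3 and 0.0550 without normoxia library 1. ATRA against vehicle gave -0.14 in hyperoxia and -0.04 in normoxia, neither called.

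PTGR1, the reductase that inactivates prostaglandins and leukotriene B4, lies on chromosome 9 at 111549722 to 111599647 and overlaps ZNF483, whose counts were 3.64% as many. In normoxia it was at 269.5 and 246 CPM untreated, 282 and 270.3 CPM with vehicle, and 163, 153 and 150.2 CPM with ATRA. In hyperoxia it was at 817 and 813 CPM untreated, 932 and 906 CPM with vehicle, and 460 CPM, 473 CPM and 576 CPM with ATRA. Every hyperoxia library was above every normoxia library, and at each oxygen level every ATRA library was below every other library. Groups of ATRA and untreated libraries did not overlap for 24% of all genes in hyperoxia and 25.1% in normoxia.

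Hyperoxia raised PTGR1 by 1.73 with vehicle (SE 0.13, adjusted p = 1.07e-08, edgeR), 1.70 with ATRA (SE 0.11, adjusted p = 7.89e-10) and 1.66 in untreated cells (SE 0.13, adjusted p = 9.77e-07), which is 3.33-fold, 3.24-fold and 3.16-fold. Without library 1 of untreated hyperoxia the last value was 1.65 (adjusted p = 1.25e-07, edgeR). With ATRA against vehicle it fell, by 0.87 in hyperoxia (SE 0.12, adjusted p = 0.000148, edgeR) and by 0.83 in normoxia (SE 0.12, adjusted p = 0.000460). The interaction was -0.04 (95% interval -0.40 to 0.32). Against untreated cells ATRA gave -0.70 in hyperoxia (adjusted p = 0.0123) and -0.73 in normoxia (adjusted p = 0.00669, edgeR). Each was the single call among the 7 genes counted above, where 0.43% and 0.437% of all genes were called. The call in hyperoxia was lost without untreated library 1 (-0.70, adjusted p = 0.0555, with 0.176% of all genes called), ATRA library 1 (-0.64, adjusted p = 0.0749) or ATRA library 2 (-0.66, adjusted p = 0.0684), and that in normoxia without untreated library 1 (-0.67, adjusted p = 0.140). With untreated hyperoxia library 1 out of the fit, the normoxia value was -0.74 (adjusted p = 0.00148, edgeR).

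**Figure D2:**
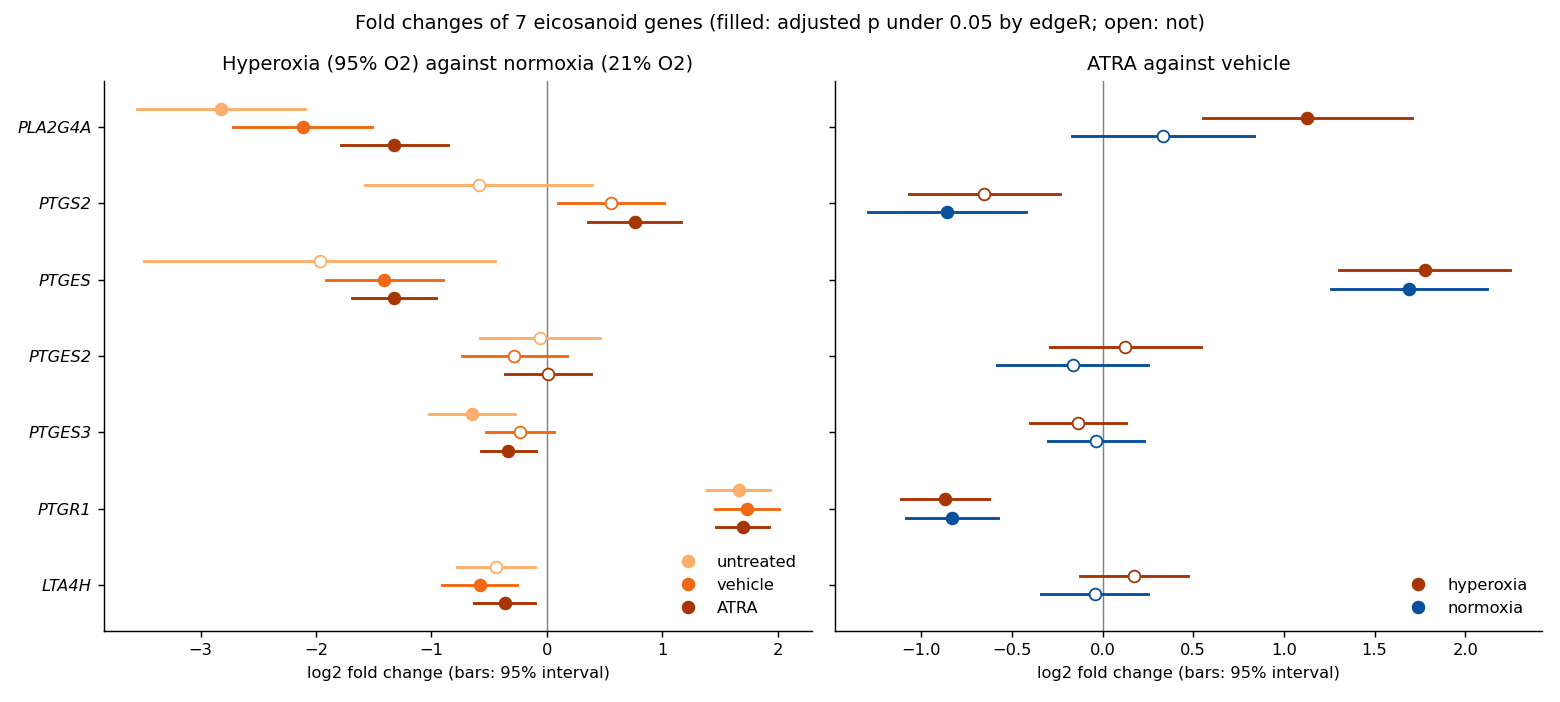
Log2 fold changes of 7 genes with 95% intervals from edgeR, for hyperoxia against normoxia in untreated, vehicle and ATRA libraries (left) and ATRA against vehicle in hyperoxia and normoxia (right); filled points have an adjusted p under 0.05. PTGR1 lies at 1.66 to 1.73 in all 3 oxygen comparisons and at -0.87 and -0.83 with ATRA, PTGES has the opposite signs, and ALOX5 is left out because it passed the count filter only through 1 group.

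The plot of fold changes sets PTGR1 and PTGES side by side: for both, oxygen and ATRA acted in opposite directions, with hyperoxia raising PTGR1 and lowering PTGES and ATRA doing the reverse. For PTGES the hyperoxia libraries with ATRA (37.1 to 51.7 CPM) were near the normoxia libraries with vehicle (32.1 and 34.1 CPM). For PTGR1 they (460 to 576 CPM) were above them (270.3 and 282 CPM), and for PLA2G4A (17.2 to 36.4 CPM) below them (53.2 and 60.1 CPM). These values differ in both oxygen and ATRA and were not tested against each other.

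ALOX5, the lipoxygenase that starts leukotriene synthesis, on chromosome 10 at 45374216 to 45446117, was near 0 in most libraries. Its counts in hyperoxia with ATRA were 31, 23 and 2, or 5.59, 8.80 and 0.47 CPM. In the 11 other libraries of the 6 groups it had 0 to 4 counts, the highest in untreated hyperoxia library 2. So 2 of the 3 hyperoxia ATRA libraries stood above the 3-count floor by a wide margin and the third did not. Those 2 libraries also had fewer genes with a count, 16466 and 16465 against 18518 in the third, and the part of this in the result was not tested.

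Because ALOX5 entered the fit only through the group in which it was high, and would not have entered it without hyperoxia ATRA library 1 or 2, no test of it is given. The protein that presents arachidonic acid to ALOX5, encoded by ALOX5AP, had at most 13 counts, and LTC4S, the leukotriene C4 synthase, at most 1.

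LTA4H, which turns leukotriene A4 into leukotriene B4, on chromosome 12 at 96000753 to 96043520, was at 140 and 125 CPM in normoxia and 80.8 and 94.8 CPM in hyperoxia with vehicle. With ATRA it was at 112, 138 and 134 CPM in normoxia and 97.9, 101 and 98.5 CPM in hyperoxia. Untreated libraries were at 126 and 119 CPM in normoxia and 82.5 and 98.4 CPM in hyperoxia. All hyperoxia libraries were below all normoxia libraries. The noncoding gene LOC102723340 overlaps LTA4H and held 16.5% as many counts, so reads could have been split between them.

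LTA4H fell in hyperoxia with vehicle (log2 fold change -0.58, SE 0.16, adjusted p = 0.0112, edgeR) and with ATRA (-0.37, SE 0.13, adjusted p = 0.0428). In untreated cells the difference was -0.44 (adjusted p = 0.0727, edgeR). It was -0.32 without library 1 of hyperoxia and -0.63 without library 2. Those fits each leave 1 library of untreated hyperoxia, and no test of these LTA4H values is given here. The vehicle call was lost without library 1 of hyperoxia (-0.50, adjusted p = 0.149) or library 1 of normoxia (-0.53, adjusted p = 0.107). The ATRA call was lost without hyperoxia library 1 or 3 or normoxia library 2 or 3, with log2 fold changes of -0.37 to -0.31 and adjusted p of 0.0744, 0.0781, 0.117 and 0.0924. ATRA against vehicle gave 0.17 in hyperoxia and -0.04 in normoxia, neither called.

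PTGER4, the EP4 receptor of prostaglandin E2, on chromosome 5 at 40679915 to 40746800, had 0 to 13 counts per library and did not pass the filter. Its counts were 2, 1 and 13 in hyperoxia with ATRA and 4, 6 and 6 in normoxia with ATRA. With vehicle they were 3 and 5 in hyperoxia and 4 and 6 in normoxia. The annotated span of PTGER4 overlaps TTC33, which held 892 counts against 71 for PTGER4, so low counts of this gene are uncertain. No difference was detectable at this depth.

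No gene of the 7 was called in the interaction of oxygen and ATRA by edgeR, where 0.14% of all genes were called, and 1 of the 7, PLA2G4A, had an unadjusted p under 0.05. DESeq2 on the same libraries gave an adjusted p to 3 of them and called 0. In hyperoxia against normoxia among untreated libraries, 3 of the 7 were called (PTGR1 up, PLA2G4A and PTGES3 down), where 15.2% of all genes were, 7.57% higher and 7.58% lower. Without library 1 of untreated hyperoxia PTGR1 and PLA2G4A were called, where 10.5% of all genes were. The median log2 fold change over all genes in that comparison was -0.10, and -0.03 without library 1. The oxygen effect in untreated and vehicle libraries was compared directly, and 0 of the 7 differed (0.00652% of all genes called, and 0 of the 7 at an unadjusted p under 0.05, edgeR). For PTGR1 that difference was -0.07 (95% interval -0.45 to 0.31), and -0.08 (-0.52 to 0.36) without library 1. For PLA2G4A it was -0.70 (95% interval -1.69 to 0.29), and -0.39 (-1.35 to 0.58) without library 1.

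Levels were compared between genes per kilobase of the canonical transcript (GENCODE 44). In normoxia PTGES3 was highest, at 215 ± 41.1 CPM per kb untreated (SD, n = 2) and 186 ± 23.9 with vehicle (SD, n = 2), followed by PTGR1 at 161 ± 10.6 and 173 ± 5.27 CPM per kb. The vehicle libraries of these 2 genes overlapped. In all 3 hyperoxia groups PTGR1 was highest, at 575 ± 11.4 CPM per kb with vehicle (SD, n = 2) and 314 ± 39.8 with ATRA (SD, n = 3), above PTGES3 at 158 ± 5.73 and 144 ± 3.77 CPM per kb without overlap.

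The order of the prostaglandin E2 branch changed with treatment. In normoxia with vehicle, LTA4H and PTGES2 exceeded PLA2G4A and PTGES, which overlapped at 19.7 ± 1.71 and 18.9 ± 0.79 CPM per kb (SD, n = 2), and PTGS2 followed at 10.9 ± 1.78. In normoxia with ATRA, PTGES ranked below PTGR1 at 60.8 ± 10.0 CPM per kb (SD, n = 3), overlapping LTA4H at 59.7 ± 6.41, while PTGS2 was at 6.02 ± 1.53. In hyperoxia with vehicle, PTGS2 at 16.1 ± 0.15 CPM per kb stood above PTGES at 7.04 ± 0.74 and PLA2G4A at 4.48 ± 1.12 (SD, n = 2), with no overlap between neighbours. In hyperoxia with ATRA, PTGES at 24.1 ± 4.71 CPM per kb was above PTGS2 at 10.3 ± 0.69, and PTGS2 overlapped PLA2G4A at 9.71 ± 3.40 (SD, n = 3). PTGER4, PTGS1 and ALOX5 had group means of at most 1.97 CPM per kb in all 6 groups.

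**Figure D3:**
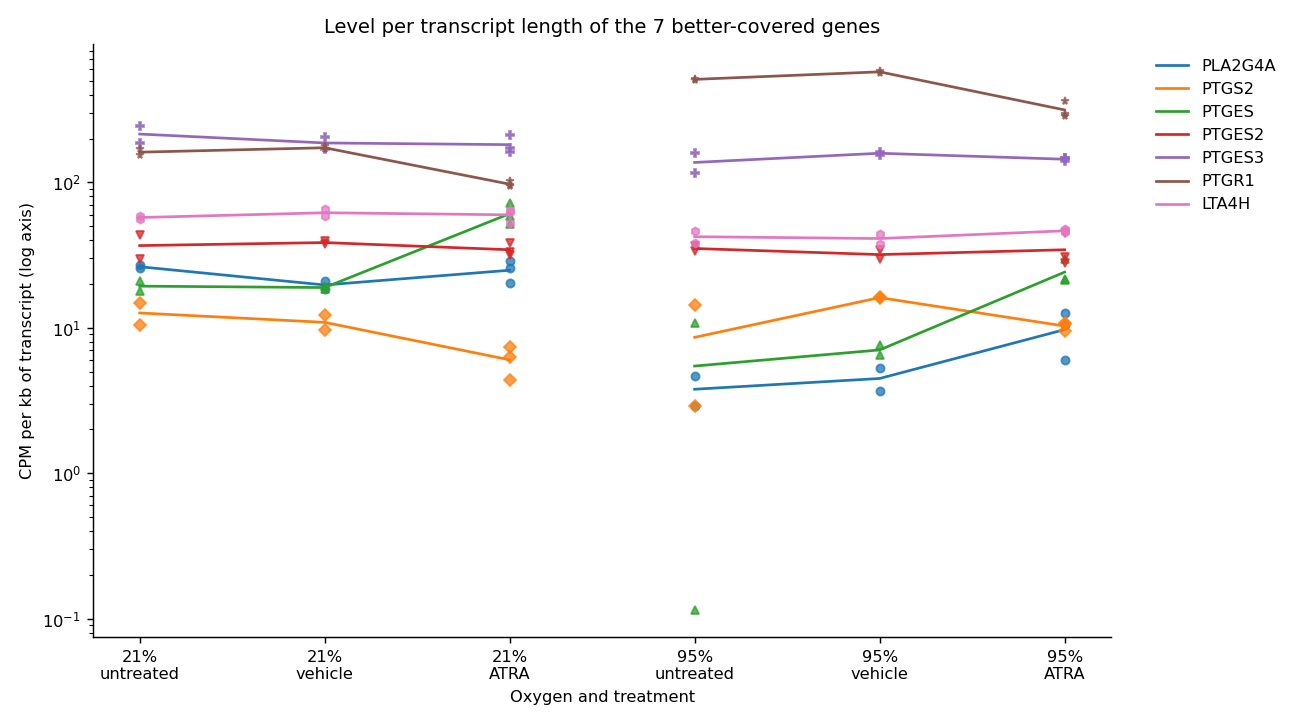
Level per kilobase of canonical transcript (CPM per kb, log axis) of 7 genes by oxygen level and treatment, with points for libraries and lines joining group means within an oxygen level. PTGR1 and PTGES3 are the highest in all groups, in hyperoxia PTGES lies above PTGS2 with ATRA and below it with vehicle, and the lowest point is PTGES in library 1 of untreated hyperoxia, with 1 count.

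The plot of levels per length also shows how flat PTGES2 was, at group means of 31.8 to 38.5 CPM per kb. PLA2G4A and PTGES, which start and end the route from membrane lipid to prostaglandin E2, were both lower in each hyperoxia group than in the normoxia group of the same treatment, while PTGS2, between them in the route, was higher in hyperoxia with vehicle and with ATRA.

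The other genes of the pathway were taken from lists of phospholipases, arachidonate handling, prostanoid synthesis, export and breakdown, lipoxygenases, epoxygenases and receptors. Of these 72 genes, 41 passed the filter. In hyperoxia with vehicle 6 rose and 6 fell, where 17.5% of all genes were called (median log2 fold change -0.21 against 0.01 over all genes tested). Those that rose include PLA2G4C and ALOXE3, whose counts lay mostly in hyperoxia and whose calls are not read as results. With ATRA in both arms 7 rose (PLA2G4C counted) and 3 fell (median 0.02), where 22.7% of all genes were called. In untreated cells 6 rose (PLA2G4C counted) and 5 fell, where 15.2% were called. Without library 1 of untreated hyperoxia 7 of 42 rose and 4 fell, where 10.5% were called. With ATRA against vehicle 1 rose and 1 fell in hyperoxia, where 2.21% were called, and 2 fell in normoxia, where 1.25% were called.

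Among phospholipases, PLA2G4C, a calcium-independent relative of PLA2G4A, moved opposite to it. With vehicle PLA2G4C was at 32.1 CPM in hyperoxia and 2.20 CPM in normoxia, a log2 fold change of 3.84. Its counts lay mostly in hyperoxia, so no test of it is given. DAGLB, which makes the arachidonate source 2-arachidonoylglycerol, rose by 1.29 (adjusted p = 0.00360). In arachidonate handling, MBOAT7, which puts arachidonate back into phosphatidylinositol, rose by 0.54, and ANXA1, annexin A1, fell by 0.48.

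In prostanoid synthesis, AKR1B1, an aldose reductase with prostaglandin F synthase activity, rose in hyperoxia with vehicle by 0.42 (adjusted p = 0.0399). With ATRA against vehicle it fell by 0.75 in hyperoxia (adjusted p = 0.00131) and 1.05 in normoxia (adjusted p = 5.80e-05, all edgeR). The control mattered: normoxia was at 995 CPM untreated and 1524 CPM with vehicle. Against untreated cells ATRA gave -0.43 in normoxia (adjusted p = 0.448) and -0.79 in hyperoxia (adjusted p = 0.0198, edgeR). Oxygen in untreated cells gave 1.08 (adjusted p = 0.00028). Its difference from vehicle was 0.65 (adjusted p = 0.869, edgeR). CBR1, a carbonyl reductase, fell by 1.01 in hyperoxia with vehicle. With ATRA in both arms its difference was -0.35 and in untreated cells -0.23, neither called. In breakdown and export, HPGD, which inactivates prostaglandin E2, fell by 1.34 in hyperoxia with vehicle (adjusted p = 0.000116) and by 1.02 with ATRA in normoxia (adjusted p = 0.00545, edgeR). HPGD and PTGR1, both of prostanoid breakdown, thus had opposite signs with oxygen and the same sign with ATRA in normoxia. ABCC4, which exports prostaglandins, fell by 0.81, and CYP4F11, an omega-hydroxylase, rose by 0.66 in hyperoxia with vehicle.

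Of the lipoxygenase list, ALOXE3 had a log2 fold change of 4.60 in hyperoxia with vehicle, from 0.52 CPM, near the floor, to 12.5 CPM. With ATRA it was at 1.79 CPM in normoxia and 5.87 CPM in hyperoxia. Its counts lay mostly in hyperoxia, so no test of it is given. MGST3 fell by 0.78 in hyperoxia with vehicle. Among 14 receptors, PTGER4 included, 4 passed the filter. PTGIR, the prostacyclin receptor, fell by 0.71 in hyperoxia with vehicle (adjusted p = 0.00272, edgeR) and was higher by 0.55 with ATRA in hyperoxia (adjusted p = 0.0479). PTGER2, the EP2 receptor, had at most 8 counts, and 5 of the 14 receptors had none in any library.

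**Figure D4:**
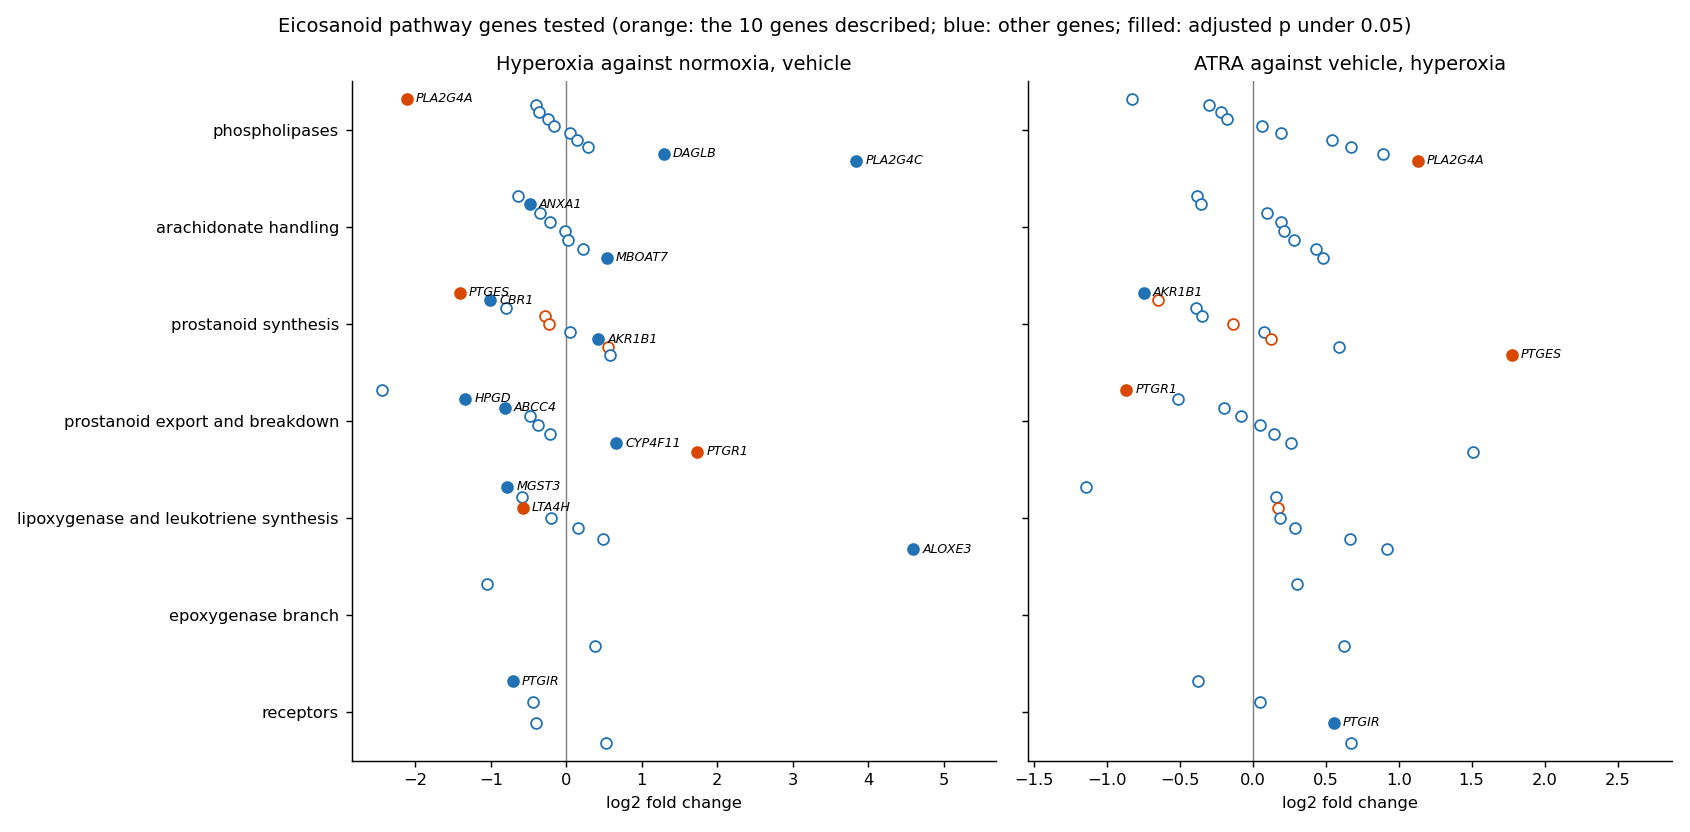
Log2 fold change of each eicosanoid pathway gene tested, by list, for hyperoxia against normoxia with vehicle (left) and ATRA against vehicle in hyperoxia (right); orange marks the genes described singly, blue the other pathway genes, and filled points an adjusted p under 0.05. ALOX5 is left out. PLA2G4C and ALOXE3, with counts mostly in hyperoxia, are drawn filled on the left, but their calls are not read as results. Called genes lie on both sides of 0 within most lists on the left, while only PLA2G4A, PTGES, PTGIR, PTGR1 and AKR1B1 are filled on the right.

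Over all 14 libraries, the genes of the series most like PTGES in their log2 CPM were CD38, GDPD5 and GLP2R, with mean absolute differences of 0.25, 0.34 and 0.45 after each gene was centred on its mean. CD38 encodes an NAD-consuming surface enzyme. The likeness includes library 1 of untreated hyperoxia, in which PTGES had 1 count. ALOX5 and PTGS1, with counts near the floor, were most like SPRY4-IT1 (0.53) and RIPPLY3 (0.50), a likeness over values mostly near 0.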

How the data were processed

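A549 RNA was sequenced with a stranded kit. Per the labels and the study's methods, the authors trimmed reads (Trimmomatic 0.38), aligned them to hg38 (HISAT2) and made the deposited values, raw read counts per gene and library, with HTSeq; the annotation release, strand setting and overlap rule are not given in the sources used here. Rows naming no gene held 75.2 to 78.4% of reads (48.6 to 55.3% in no annotated feature) and were left out.

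Counts were scaled by TMM to CPM and tested with edgeR 4.0.16 (quasi-likelihood, Benjamini-Hochberg adjustment, R 4.3.3). Genes were kept by filterByExpr (minimum count 10, minimum total 15). The 4 vehicle and ATRA groups (10 libraries) formed the main fit and all 6 groups (14 libraries) the fit for untreated cells. Groups came from the labels. Replicates of a group were never identical within sampling noise. Log values for likeness used a prior count of 2. Alternatives were RLE size factors, no filter, other sets of libraries, DESeq2 1.42.0 and leaving out each library. A fit without library 1 of untreated hyperoxia was added after seeing the data. The procedure was tested on simulated counts. Motifs were searched in RefSeq promoter windows. Genes were named as the 10 listed by symbol, and pathway genes where called. Members and lists were chosen with earlier results of these data known.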

Additional observations from a re-analysis of the deposited data

Results flagged for a closer look

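The library with conflicting labels, titled as hyperoxia but with a treatment label that matches no group, entered no comparison. Set against the untreated and vehicle libraries, PTGR1 and PTGS1 were above the highest normoxia value and the 3-count floor, all scaled to the total count of each library. This looked at higher values only, and the share of all genes that were above in this way was not counted. PTGR1 was at 958 CPM there, against at most 286 CPM in normoxia and 771 to 930 CPM in hyperoxia, so it lay near the hyperoxia libraries. PTGS1 was at 2.04 CPM, from 9 counts, against at most 1.51 CPM in normoxia and 1.57 CPM in hyperoxia.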

How the results depend on the processing

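Among the 10 genes, the number called was 4 for oxygen with vehicle and 7 (ALOX5 counted) with ATRA as a covariate. The covariate fit takes the oxygen effect over vehicle and ATRA libraries together, so the 7 are not calls for vehicle alone. The number called went from 7 (ALOX5 counted) to 2 (14 libraries) or 4 (only the groups compared) for oxygen with ATRA. For ATRA in hyperoxia it went from 3 to 1 (14 libraries). For ATRA in normoxia it went from 3 to 1 (14 libraries, or pooled controls, where vehicle and untreated libraries form 1 group). For oxygen in untreated cells it went from 3 to 1 (only the groups compared), and for ATRA against untreated normoxia from 1 to 3 (13 libraries). Leaving out each library gave 3 to 4, 4 to 5, 2 to 3, 2 to 3 and 2 to 6 for the first 5, 0 to 0 for the interaction, 0 to 3 for the difference of oxygen effects, and 0 to 4 and 0 to 1 for ATRA against untreated hyperoxia and normoxia; the causes were not tested. In the comparisons that hold untreated hyperoxia, the number called over all genes also varied widely between the fits that left out a library. Without library 2 of untreated hyperoxia, only library 1, which stood apart, is left in that group. The upper counts in those comparisons are therefore not read as a response of the 10 genes. PTGR1 kept its call in every alternative run for the oxygen comparisons and for ATRA against vehicle. No paired analysis was possible because the labels give no replicate numbers shared between groups.

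In the fit of 14 libraries, which holds library 1 of untreated hyperoxia, every PTGES call was lost, as were those of PTGS2, PTGES3 and LTA4H for oxygen with ATRA (adjusted p from 0.0772 to 0.241) and of PTGS2 for ATRA in normoxia (adjusted p = 1). That PTGS2 call was also lost with library 1 left out (13 libraries, adjusted p = 0.0516), with only the groups compared (0.0934) and with pooled controls (0.570). Without a filter on low counts LTA4H was lost for oxygen with ATRA (-0.37, adjusted p = 0.0561) and PTGES was called for oxygen in untreated cells (-2.00, adjusted p = 1.29e-07).

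Signs turned for uncalled values. PTGES2 for oxygen with ATRA gave -0.0007589 (RLE), -0.007789 (only the groups compared) and -0.003767 (DESeq2), and LTA4H for ATRA in normoxia 0.01691 (pooled controls). Leaving out each library gave -0.2457 to 0.1378 for PTGES2 in oxygen with ATRA, -0.1302 to 0.2615 for PTGES2 with ATRA in hyperoxia, -0.1669 to 0.08832 for PTGES3 and -0.1303 to 0.04245 for LTA4H with ATRA in normoxia, -0.0987 to 0.2211 for PTGES and -0.1459 to 0.02339 for PTGR1 in the interaction, and -2.183 to 0.1788 for PTGS2 with oxygen in untreated cells.

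Over all genes, oxygen with vehicle gave 2616 calls against 1420 (14 libraries) and 4665 (only the groups compared). The covariate fit, which takes vehicle and ATRA libraries together, gave 4802. Oxygen with ATRA gave 3391 against 1975 (14 libraries). ATRA in hyperoxia gave 331 against 522 (no filter), 116 (14 libraries) and 182 (pooled controls), and in normoxia 187 against 300 (no filter) and 70 (14 libraries). The interaction gave 21 against 91 (no filter), 4 (14 libraries), 103 (DESeq2) and 5 (pooled controls), oxygen in untreated cells 2324 against 58 (only the groups compared), and ATRA against untreated normoxia 67 against 183 (13 libraries). At 3 counts as the floor, PTGS1, ALOX5 and PTGER4 are at the limit of the depth.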
